A study of Mus musculus with 4 samples.

Results

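The genes described here encode 5 RNA-binding proteins of the mouse germ line: *Nanos1*, *Nanos2*, *Nanos3*, *Dnd1* and *Dazl*. They were taken by gene symbol as a family, with earlier results of these data known, and all 5 were among the 54920 gene symbols of the count files and among the 23952 genes that passed the filter on low counts. The libraries were made from ID4-EGFP+ cells, a reporter-sorted population enriched for spermatogonial stem cells (SSCs), from mouse testes at postnatal day 8. The 2 control libraries came from mice with floxed *Cnot3* alleles and the *Id4-eGfp* reporter (Cnot3flox/flox;Id4-eGfp), although the sample labels call them wild-type. The 2 *Cnot3*-cKO libraries came from mice that carried *Ddx4*-creER in addition, a tamoxifen-inducible recombinase driven by a germ cell promoter. All mice had received 4-OHT, the active form of tamoxifen, from day 1 to day 3 after birth. How many animals gave each library is not given in the sources used here. The study calls its replicates biological but gives a larger number of them than the labels do. The p-values measure the spread between the labelled libraries, and for single genes that spread was estimated partly from the other genes.

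NANOS proteins carry a paired zinc finger and act as adaptors between particular mRNAs and the CCR4-NOT complex, which shortens poly(A) tails and so starts mRNA decay. *Nanos2* is known as a gene of SSCs, *Nanos3* is needed in primordial germ cells and is also expressed in undifferentiated spermatogonia, and *Nanos1* is the third mammalian member. DND1 is an RNA-binding partner of NANOS2 and of CCR4-NOT. DAZL belongs to the DAZ family, binds mRNAs in nearly all germ cells before the spermatid stages and is widely used as a germ cell marker. CNOT3 is a structural subunit of CCR4-NOT, and the question of the comparison is what happens to the transcripts of these adaptors when *Cnot3* is deleted.

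*Nanos3* and *Nanos1* had lower transcript levels in *Cnot3*-cKO cells than in controls, by 2.09-fold and 1.74-fold. *Nanos2*, *Dnd1* and *Dazl* did not pass the test at an adjusted p under 0.05, and their estimates differed in precision. Calls followed the thresholds of the study, which are an adjusted p (Benjamini-Hochberg) under 0.01 and more than a 2-fold difference. By this rule 1 of the 5 genes, *Nanos3*, was called lower and 0 were called higher, against 0.735% of all tested genes called lower and 4.03% called higher. When the fold change was not limited and the adjusted p had to be under 0.05, 2 of the 5 were lower and 0 higher, against 9.46% and 11.1% of all tested genes. For 3 of the 5 genes the values of the groups did not overlap, which was also so for 59.1% of all tested genes.

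Library totals ranged from 22192964 to 43378493 counted reads, with both controls above both *Cnot3*-cKO libraries. Levels are in CPM, read counts relative to library totals that were scaled by TMM, a factor that aligns the bulk of genes between libraries. *Cnot3* itself had 58.6 and 50.2 CPM in the controls against 19.2 and 19.9 CPM after *Cnot3* deletion. Germ cell genes were abundant in every library, with *Ddx4*, a germ cell helicase, between 702.8 and 754 CPM. Markers of somatic testis cells were present as well and were higher in *Cnot3*-cKO libraries. All 12 Sertoli cell markers, 4 of 5 tested Leydig cell markers and 8 of 9 macrophage markers were called higher. Of 4 tested endothelial cell markers 2 were called higher, and of 5 peritubular myoid cell markers 0 were. The summed Sertoli cell markers took 250 to 262 CPM in the controls against 834 to 858 CPM after *Cnot3* deletion. For the summed macrophage markers the controls differed more, with 268 and 176 CPM against 593 and 484 CPM after *Cnot3* deletion. *Insl3*, a defining Leydig cell gene, had 0 reads in all 4 libraries, while *Hsd3b1*, another Leydig cell marker, had 248 to 712 CPM. The reason for the 0 reads was not tested. In bulk RNA, fewer cells of a type and less RNA per cell cannot be told apart.

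*Nanos3* lies on chromosome 8 of GRCm38 (also called mm10), from 84173731 to 84185217 on the reverse strand. Its 3 annotated transcripts cover 924 exonic bases, and 2 microRNA genes, *Mir181c* and *Mir181d*, lie in its introns with 0 exonic bases shared. *Nanos3* had 648 and 711 reads in the controls against 175 and 230 after *Cnot3* deletion. On the CPM scale these were 16.1 and 16.9 for controls against 7.72 and 8.03 for *Cnot3*-cKO cells. Both *Cnot3*-cKO values lay below both control values, and the largest difference within a group was 1.05-fold. The group means were 16.5 ± 0.573 and 7.88 ± 0.217 CPM (SD, n = 2 per group). The log2 fold change was -1.07 (standard error 0.17, 95% confidence interval -1.45 to -0.69), with an edgeR adjusted p of 0.00118. Of all tested genes, 2.85% had a lower log2 fold change than *Nanos3*. Among the 4443 tested genes within 1 log2 CPM of its level, 1.15% did. Its fold change is close to the limit of 2. Scaling to library size only placed it at -0.9995 (adjusted p = 0.00168) and scaling to germ cell genes at -0.97 (adjusted p = 0.00218), both outside the call, and a test against a fold change of 2 gave an adjusted p of 1.

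*Nanos1* is a gene of a single exon on chromosome 19, from 60755987 to 60759914 on the forward strand, and no other annotated gene overlaps it. It had 2633 and 3078 reads in the controls against 895 and 1147 after *Cnot3* deletion, or 65.4 and 73.2 CPM against 39.5 and 40.0 CPM. The groups did not overlap, and the difference between them exceeded the 1.12-fold spread between the controls. The control mean was 69.3 ± 5.51 CPM and that after *Cnot3* deletion 39.8 ± 0.385 CPM (SD, n = 2 per group). The log2 fold change was -0.80 (standard error 0.11, 95% confidence interval -1.04 to -0.56, edgeR adjusted p = 0.000349). It thus passed the limit on p and not the limit on the fold change. Among the 4692 tested genes within 1 log2 CPM of *Nanos1*, 1.68% had a lower log2 fold change.

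**Figure D1:**
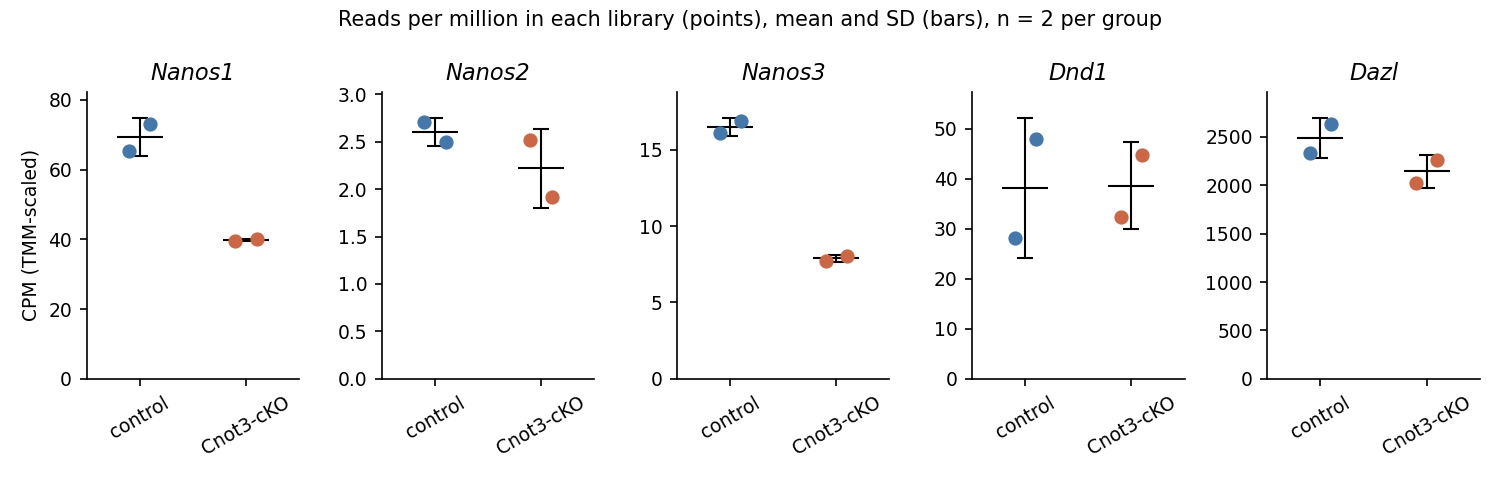
Level of each gene in CPM (vertical axes, linear and starting at 0, each with its own range) in the 2 control libraries (blue) and the 2 *Cnot3*-cKO libraries (orange), with the mean and SD as black bars. *Nanos1* (39.5 and 40.0 CPM against 65.4 and 73.2) and *Nanos3* (7.72 and 8.03 against 16.1 and 16.9) separate by group, *Dazl* does so by a small margin, and *Nanos2* and *Dnd1* overlap.

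The sequences before the start sites of *Nanos1* and *Nanos3* are shown because transcripts of both genes fell. Each run holds the 250 bases before the RefSeq start on GRCm38.p6, 5′ to 3′ on the strand of the gene, with each CG dinucleotide in capitals. The *Nanos1* run lies at chr19:60755737-60755986 on the forward strand and the *Nanos3* run at chr8:84176553-84176802 on the reverse strand, which places the RefSeq start of *Nanos3* inside the longer GENCODE gene span.
Nanos1: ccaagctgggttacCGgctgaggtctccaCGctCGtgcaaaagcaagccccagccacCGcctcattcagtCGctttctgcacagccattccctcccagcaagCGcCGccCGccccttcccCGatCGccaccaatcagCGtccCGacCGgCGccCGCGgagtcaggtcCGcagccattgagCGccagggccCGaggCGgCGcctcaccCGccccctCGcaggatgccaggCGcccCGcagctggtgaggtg
Nanos3: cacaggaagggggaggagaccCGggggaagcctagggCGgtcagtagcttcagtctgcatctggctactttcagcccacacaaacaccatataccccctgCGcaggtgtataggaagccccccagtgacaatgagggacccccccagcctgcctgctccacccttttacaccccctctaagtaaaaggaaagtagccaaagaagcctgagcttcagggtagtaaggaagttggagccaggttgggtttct
The *Nanos1* run holds 25 CG dinucleotides with a GC content of 70.4%, and the *Nanos3* run holds 3 with a GC content of 56.4%. Among 27025 gene promoters in windows of the same length, 10.3% hold at least 25 and 70.4% hold at least 3, and the median is 6. The runs before *Nanos2* and *Dazl*, on chromosomes 7 and 17, hold 0 and 20. The counts of CG describe these windows and were not tested against the transcript levels.

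NANOS proteins act together with PUMILIO proteins, which bind the RNA letters UGUANAUA (TGTANATA in DNA). The 3′ UTRs of the 5 genes were searched for these letters, on the transcript strand alone, because a transcript with such a site could itself be bound. The *Nanos1* 3′ UTR, of 2845 bases, holds 1 match, and those of *Nanos2* (947 bases), *Nanos3* (172 bases), *Dnd1* (360 bases) and *Dazl* (1852 bases) hold 0. Of 2065 3′ UTRs within 20% of the length of that of *Nanos1*, 43.1% hold at least 1 match. The match starts at base 652 of the 3′ UTR, in the window chr19:60757710-60757739 on the forward strand, and is in capitals.
Nanos1 site: taatcatatcgTGTACATAtttggaaacgg
The letters describe the transcript and are not evidence of binding.

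*Nanos2*, on chromosome 7 from 18987400 to 18988962 on the forward strand, was the least abundant of the genes. It had 109 and 105 reads in the controls against 57 and 55 after *Cnot3* deletion, or 2.71 and 2.50 CPM against 2.52 and 1.92 CPM. The groups overlapped, since *Cnot3*-cKO replicate 1 lay between the controls. The log2 fold change was -0.24 (standard error 0.32, edgeR adjusted p = 0.672). Its 95% confidence interval ran from -0.92 to 0.45, a level of 0.527 to 1.37 relative to controls. A decrease as large as that of *Nanos1* lies inside this interval, as does no change, and the 2 were not separable at this depth. The annotated antisense gene *Gm45058* covers 766 exonic bases of *Nanos2* and had 0 reads in all libraries. The library kit keeps strand, but whether the counting used strand is not given in the sources used here. If it did not, reads on the shared bases may have counted for neither gene. The 0 reads then do not show that antisense RNA was absent, and the *Nanos2* level could be too low.

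**Figure D2:**
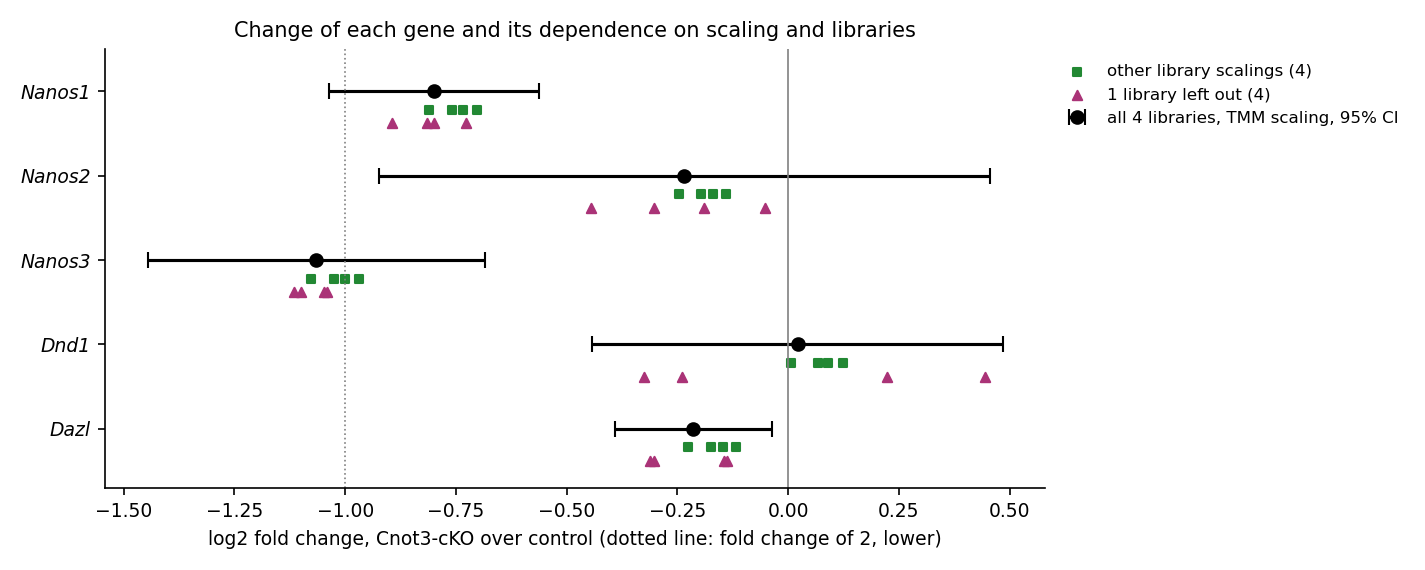
Log2 fold change of *Cnot3*-cKO over control for each gene (horizontal axis), with the 95% confidence interval (black), under 4 other library scalings (green squares) and with each of the 4 libraries left out in turn (purple triangles). *Nanos3* (-1.07) and *Nanos1* (-0.80) lie below 0 in every setting drawn, the *Nanos2* interval reaches from -0.92 to 0.45, and *Dnd1* moves from -0.33 to 0.44 as libraries are left out.

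*Dnd1* lies on chromosome 18 from 36763671 to 36766214 on the reverse strand. It varied more between libraries of a group than between groups. Controls had 28.2 and 48.0 CPM, a 1.70-fold difference, and *Cnot3*-cKO cells had 32.4 and 44.8 CPM, a 1.38-fold difference. The means were 38.1 ± 14.0 and 38.6 ± 8.76 CPM (SD, n = 2 per group). Both *Cnot3*-cKO values lay between the controls, and the log2 fold change was 0.02 (standard error 0.21, 95% confidence interval -0.44 to 0.48, edgeR adjusted p = 0.963). The direction rested on single libraries, with -0.33 without control replicate 1, -0.24 without *Cnot3*-cKO replicate 2 and 0.44 without control replicate 2. Each of these fits left 1 library in a group. The 3′ end of *Dnd1* shares 140 exonic bases with *Wdr55* on the opposite strand. *Wdr55* had 55.7 and 70.5 CPM in the controls against 54.8 and 54.6 CPM after *Cnot3* deletion, and its part in the *Dnd1* counts was not tested.

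*Dazl*, on chromosome 17 from 50279395 to 50293636 on the reverse strand, was by far the most abundant of the genes. It took 0.230% and 0.255% of all counted reads in the controls against 0.207% and 0.231% after *Cnot3* deletion. It had 2339 and 2634 CPM in the controls against 2024 and 2263 CPM after *Cnot3* deletion. The groups did not overlap, although the gap between them was smaller than the difference within either group. The log2 fold change was -0.21 (standard error 0.08, 95% confidence interval -0.39 to -0.04), and the edgeR adjusted p was 0.0840. The interval does not reach the change of *Nanos1*. The edgeR adjusted p was 0.00135 without a filter on low counts. The log2 fold change was -0.31 without control replicate 1 and -0.15 without *Cnot3*-cKO replicate 1, fits that left 1 library in a group.

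Levels of different genes were compared as CPM per kb of annotated exon. In controls the order was *Dazl* at 651 ± 54.6, *Nanos3* at 17.9 ± 0.620, *Nanos1* at 17.6 ± 1.40, *Dnd1* at 15.8 ± 5.81 and *Nanos2* at 1.66 ± 0.0953 CPM per kb (SD, n = 2). *Nanos3*, *Nanos1* and *Dnd1* had overlapping values, so their order is within the spread of the libraries. *Dazl* stood above 99.9% of tested genes on this scale in controls, and *Nanos2* above 43.6%. The *Nanos2* level is per all of its exonic bases, including those shared with *Gm45058*, and could be too low for the reason given above. In *Cnot3*-cKO cells *Dnd1* was at 16.0 ± 3.63, *Nanos1* at 10.1 ± 0.0980 and *Nanos3* at 8.53 ± 0.234 CPM per kb (SD, n = 2), without overlap between the 3 genes.

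The share of each *Nanos* gene in the *Nanos* transcripts did not overlap between groups. With 2 libraries against 2, no exact test can place this below a p of 0.3333. The shares within a library are parts of the same sum, so they are not separate results. Per length, *Nanos3* made up 48.7% and 47.5% of the summed *Nanos* level in controls and 41.7% and 43.2% in *Cnot3*-cKO libraries. *Nanos1* made up 46.5% and 48.4% in controls and 50.2% and 50.7% in *Cnot3*-cKO libraries. *Nanos2* contributed 4.84% and 4.15% in controls and 8.04% and 6.11% in *Cnot3*-cKO libraries, from the small read counts given above. The limit from the bases shared with *Gm45058* holds for these shares too.

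**Figure D3:**
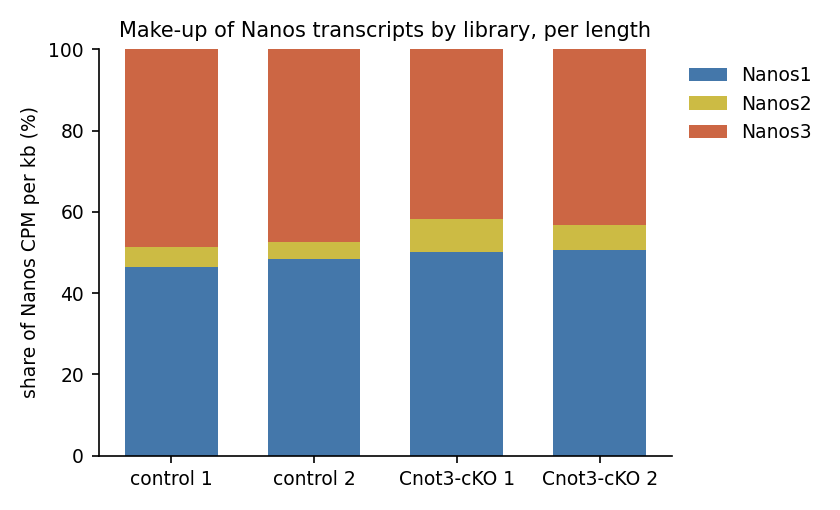
Share of each *Nanos* gene in the summed *Nanos* CPM per kb (vertical axis, percent) in each library. *Nanos3* takes 47.5% to 48.7% in controls and 41.7% to 43.2% in *Cnot3*-cKO libraries, and *Nanos2* is the smallest share in all 4.

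Ratios of raw reads between pairs of these genes do not depend on how libraries are scaled. The log2 ratio of *Nanos3* to *Dazl* was -7.18 and -7.28 in the controls against -8.03 and -8.14 after *Cnot3* deletion. That of *Nanos1* to *Dazl* was -5.16 and -5.17 in the controls against -5.68 and -5.82 after *Cnot3* deletion. Both *Nanos* genes were therefore lower relative to the germ cell gene *Dazl* in each *Cnot3*-cKO library. *Nanos3* was also lower relative to *Nanos1*, whose log2 ratio to *Nanos3* was 2.02 and 2.11 in the controls against 2.35 and 2.32 after *Cnot3* deletion. The log2 ratio of *Nanos2* to *Dazl* was -9.76 and -10.04 in the controls against -9.65 and -10.20 after *Cnot3* deletion, so that the *Cnot3*-cKO values enclosed both controls. Of the 10 pairs, 7 did not overlap between groups, and each of these held *Nanos1* or *Nanos3*. They are therefore not separate results, and 59.1% of single tested genes also did not overlap. The share over pairs of other genes was not computed. With 2 libraries against 2, the two-sided exact permutation test cannot give a p below 0.3333, and after adjustment over the 10 pairs the smallest value was 0.476.

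Relative to a list of 14 pan-germ cell genes that leaves out the 5 described here, *Nanos3* had 3.55 and 3.64 reads per 1000 summed list reads in the controls against 1.79 and 1.88 after *Cnot3* deletion. *Nanos1* had 14.4 and 15.7 in the controls against 9.14 and 9.39 after *Cnot3* deletion. *Dazl* overlapped between groups on this scale, with 516 and 567 in the controls against 468 and 530.5 after *Cnot3* deletion. Of the 14 germ cell genes, 0 were called in either direction, while 3 were higher and 4 lower at an adjusted p under 0.05. At this limit 11.1% of all tested genes were higher and 9.46% lower. The median log2 fold change of the 14 genes was -0.09, beside a median of 0.01 over all tested genes. With libraries scaled to these genes, the log2 fold change was -0.97 for *Nanos3* and -0.70 for *Nanos1* (adjusted p = 0.000683). Both transcripts were thus lower relative to the sum of these 14 genes, which themselves moved in both directions. The part of the somatic cell RNA in these libraries in the changes was not tested.

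Among the other genes listed for comparison, those within 2 log2 CPM of each gene were ranked by the root mean square difference of their log2 CPM over the 4 libraries, each centred on its own mean. This left 69 genes to compare for *Nanos1*, 21 for *Nanos2*, 47 for *Nanos3*, 66 for *Dnd1* and 5 for *Dazl*, and for *Nanos2*, *Nanos3* and *Dazl* some listed genes outside this range of abundance were nearer. The nearest within this range were, for *Nanos3*, *Sox3* (0.12) and *Rarg* (0.15), a transcription factor and a retinoic acid receptor of progenitor spermatogonia. *Sox3* had 19.0 and 23.1 CPM in the controls against 10.2 and 9.01 CPM after *Cnot3* deletion, and *Rarg* had 39.1 and 42.6 against 15.7 and 15.9 CPM. For *Nanos1* they were *Lin28b* (0.074), an RNA-binding protein that blocks let-7 processing, and *Sohlh2* (0.12), a transcription factor of spermatogonial differentiation. *Lin28b* had 158 and 169 CPM in the controls against 103 and 104 CPM after *Cnot3* deletion. For *Nanos2* they were *Ybx2* (0.18) and *Rbm24* (0.30), for *Dnd1* they were *Sohlh1* (0.21) and *Tob1* (0.22), and for *Dazl* they were *Taf7l* (0.086) and *Piwil2* (0.14).

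Markers of spermatogonial subsets moved in the same libraries. Of 12 markers of progenitor and differentiating spermatogonia, 7 were called lower and 0 higher, with a median log2 fold change of -1.09. They were *Neurog3* (-1.81), *Dmrtb1* (-1.54), *Rarg* (-1.37), *Meioc* (-1.26), *Stra8* (-1.22), *Sox3* (-1.13) and *Kit* (-1.05). *Nanos3*, at -1.07, lay near the median of this list. Of 12 markers of undifferentiated spermatogonia, 3 were called higher, *Nefm* (1.63), *Eomes* (1.39) and *Id4* (1.04), and 0 lower. *Id4* is also the gene of the reporter used for sorting. At an adjusted p under 0.05 this list had 5 higher and 3 lower, against 11.1% and 9.46% of all tested genes. The 3 lower were *Foxo1* (-0.87), *Zbtb16* (-0.82) and *Sall4* (-0.42), so these markers moved in both directions. *Nanos2*, often listed with markers of undifferentiated spermatogonia, was at -0.24 with the wide interval given above. Whether the lower progenitor markers and the lower *Nanos3* and *Nanos1* levels share a source was not tested.

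The partners of NANOS, DND1 and DAZL included 1 called gene. Of these 23 genes, 1 was called lower, the deleted *Cnot3* (log2 fold change -1.48), and 0 were called higher, with a median of -0.20. At an adjusted p under 0.05, 9 were lower and 2 higher, against 9.46% and 11.1% of all tested genes. Among partners that bind these proteins directly, *Pum2*, a PUMILIO gene, was at -0.27 (adjusted p = 0.0437). *Cnot1*, the scaffold of CCR4-NOT that NANOS proteins contact, was at -0.31 (adjusted p = 0.0378). *Pabpc1*, a poly(A)-binding protein of the kind that DAZL contacts, was at -0.44 (adjusted p = 0.0327). *Cnot2*, which pairs with CNOT3 in the complex, was at 0.37 (adjusted p = 0.00806). The other gene of this list above the looser limit was *Apobec3*, a cytidine deaminase gene, at 1.19. These values are of RNA. In cultured SSCs the study reports less CNOT1 and CNOT2 protein after *Cnot3* deletion.

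Other RNA-binding proteins of the germ line, 30 genes, had 1 called lower and 0 called higher, with a median of -0.16. The called gene was *Lin28a*, a let-7 inhibitor of undifferentiated spermatogonia, with 420 and 409 CPM in the controls against 199 and 191 CPM after *Cnot3* deletion (log2 fold change -1.09, standard error 0.08). At an adjusted p under 0.05, 12 were lower and 1 was higher, against 9.46% and 11.1% of all tested genes. *Boll*, the other DAZ family gene measured, was at -0.17 (adjusted p = 0.305), and *Ddx4* was at 0.05 (adjusted p = 0.733).

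Candidate target transcripts of these proteins, 14 genes taken from general knowledge of the field, had 1 called higher and 3 called lower, with a median of -0.25. The list shares 5 genes with the progenitor and differentiating markers, and the 3 called lower, *Neurog3*, *Stra8* and *Kit*, are among them. *Cdkn1a*, a cell cycle inhibitor, was called higher, with 2.01 and 2.45 CPM in the controls against 7.72 and 4.78 CPM after *Cnot3* deletion (log2 fold change 1.48, standard error 0.30). Its counts were small, with 81 and 103 reads in the controls against 175 and 137. Somatic cell markers were higher in the same libraries, and which cells its reads came from was not tested. The other cell cycle genes named as DND1 targets, *Cdkn1b* and *Lats2*, were at 0.07 (adjusted p = 0.818) and -0.36 (adjusted p = 0.0206). Transcripts linked to DAZL were at 0.09 for *Sycp3* (adjusted p = 0.574), 0.05 for *Ddx4* and 0.41 for *Tex19.1* (adjusted p = 0.00598). *Sohlh2* and *Taf7l*, linked to NANOS2, were at -0.57 (adjusted p = 0.000927) and -0.31 (adjusted p = 0.0117).

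**Figure D4:**
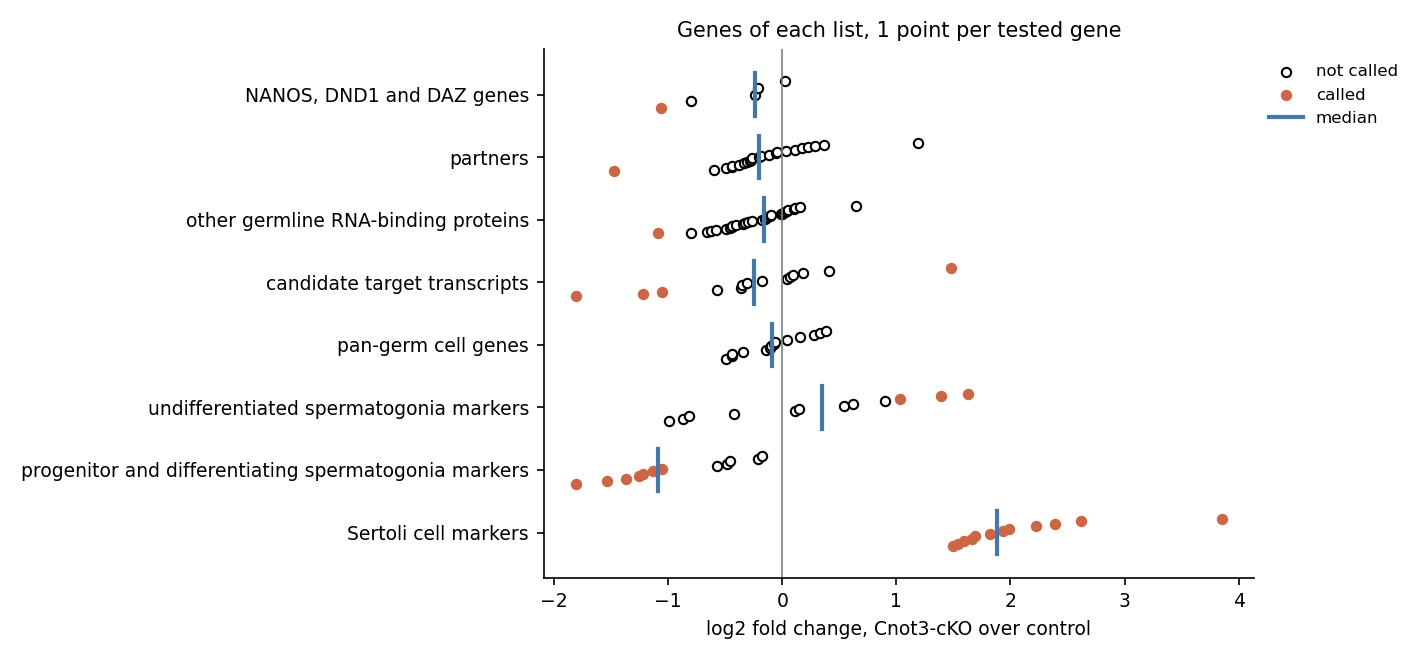
Log2 fold change of each tested gene (horizontal axis) by list, with called genes filled, other genes open and the median of each list as a blue bar. The 5 genes spread from -1.07 to 0.02, the medians of partners, other RNA-binding proteins and candidate targets lie between -0.25 and -0.16, and the progenitor and Sertoli cell lists lie at -1.09 and 1.88.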

How the data were processed

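RNA was measured in 4 libraries, 2 controls and 2 *Cnot3*-cKO, from sorted ID4-EGFP+ testis cells. The authors prepared stranded total RNA libraries, used STAR for alignment (mm10) and featureCounts for gene counting, and the deposited values are raw read counts. Whether counting used strand or multimapping reads is not given in the sources used here. Counts were tested with edgeR 4.0.16 (R 4.3.3) by quasi-likelihood after TMM scaling and filterByExpr, with Benjamini-Hochberg adjustment over all 23952 genes tested, and the test was checked on simulated data. DESeq2 1.42.0 was an alternative, along with other scalings, filters, thresholds and a replicate block, and each library was left out in turn. Exon lengths came from GENCODE M21 on GRCm38, while the authors counted on a later GENCODE release. The members and lists were chosen with earlier results of these data known. The text names the 5 genes, *Cnot3*, up to 4 genes per list (those called, or otherwise those with the largest change) and, for each member, the 2 list genes with the most similar pattern among those within 2 log2 CPM of it. Partners, candidate targets, *Boll*, *Ddx4*, *Wdr55* and further markers named beyond this were named after values were seen. The reasons were known roles, overlap or a change at either limit. Log2 ratios of raw reads were compared by two-sided exact permutation tests.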

Additional observations from a re-analysis of the deposited data

How the results depend on the processing

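*Nanos1* and *Nanos3* kept their direction under every alternative run. *Nanos3* left the call at -0.9995 with library size only, at -0.97 with scaling to germ cell genes and at -1.07 when tested against a fold change of 2. *Nanos1*, at -0.80, passed once the fold limit was dropped, at an adjusted p under 0.05 or 0.01. *Dnd1* turned to -0.0075 without a filter and to -0.011 with DESeq2. *Nanos1*, *Nanos2*, *Nanos3* and *Dazl* also moved lower in both settings, to -0.83, -0.26, -1.09 and -0.24, and the cause was not tested. With each library left out in turn, log2 fold changes ran from -0.89 to -0.73 for *Nanos1*, -0.45 to -0.052 for *Nanos2*, -1.12 to -1.04 for *Nanos3*, -0.33 to 0.44 for *Dnd1* and -0.31 to -0.14 for *Dazl*, where the lone library of a group was assumed to vary like the other group. Genes called higher ran from 943 to 1225 and lower from 217 to 271. Over all genes, 965 were called higher and 176 lower. These became 87 and 5 against a fold change of 2, 2659 and 2266 at an adjusted p under 0.05, and 1488 and 1125 at 0.01 without a fold limit, while 116 were lower with germ cell gene scaling and 285 without a filter. Germ cell gene scaling moved the median of all genes to 0.10.

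The labels give same-numbered libraries a common number, and whether they were paired is not given. The correlation of their deviations was 0.0891 over 15519 genes, which cannot decide whether they were paired. With a replicate block 1155 genes were called higher and 217 lower, *Nanos3* was at -1.07, *Nanos1* at -0.80 and *Dnd1* at 0.046, and *Dazl* had an adjusted p of 0.0422. The 2 libraries per group and the 55 to 109 reads of *Nanos2* limit what can be seen.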
